A study of Mus musculus with 8 samples.

Results

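The baseline state described here is that of C2C12 myotubes that received a control siRNA. C2C12 is a mouse myoblast line whose cells leave the cell cycle and fuse into multinucleated myotubes when serum is withdrawn. The control group held 4 of the 8 samples of the series, taken on day 4 of differentiation, and its arrays were chosen by their labels alone. The other 4 samples received an siRNA against macroH2A1.1, a splice form of a histone variant, and were not analysed here. For each sample 500 ng of total RNA was labelled with Cy3 and hybridised to its own 1-colour array. The labels call the 4 samples biological replicates and do not say how the cultures were made, so the spread given below is that between these samples. All 4 arrays lay on 1 slide and carried the same scan date. Replicates 1 and 2 lay in row 1 and replicates 3 and 4 in row 2 of the slide. Replicates 1 and 3 lay in column 1 and replicates 2 and 4 in column 3. One cell line was used, and no untransfected or undifferentiated culture was analysed here. With 1 group there was nothing to compare it with, so values are given with their spread and without a test.

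Skeletal muscle differentiation is driven by the myogenic basic helix-loop-helix factors, which act with MEF2 and homeobox proteins to switch on the genes of the contractile apparatus. Mononucleated myoblasts express Myf5, Myod1 and, in satellite cells, Pax7, whereas fusing cells express Myog. The first sarcomeres of a forming fibre contain embryonic and neonatal myosin together with isoforms that are later restricted to heart or to slow fibres, and adult fast isoforms follow as fibres mature. Many muscle proteins come in paralogs, so the members of a family that a culture expresses describe its stage.

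Of the 22456 genes with a probe named here, 13086 (58.3%) were detected, meaning that at least 1 of their probes was well above background on all 4 control arrays. Another 7926 genes (35.3%) had no probe above that limit on any of the arrays, and the remaining 1444 (6.43%) were in between. The arrays were alike in this respect: of 59305 spots with a biological probe, each array had 47.3% to 49.8% above that limit, none was saturated, and 155 to 175 spots per array were set aside as outliers. Of the 55681 different probes, 24464 (43.9%) were detected. The share was 56.5% among probes with a gene name, 27.6% among those without, and 23.8% among the 16251 probes designed to long intergenic noncoding RNAs. Olfactory receptors, which serve odour sensing in the nose, gave a measure of how often genes known mainly from another tissue passed the same rule. None of the 15 olfactory receptor genes on a chosen list was detected, and over all 1094 genes of that name, counted after the list had been seen, 42 (3.84%) were.

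Myotube markers were all detected, with the median marker at the 98.0th percentile of the detected genes by signal. Signals are given as log2 of the processed spot intensity minus the 75th percentile of the array's non-control spots, so that 0 is that percentile and 1 unit is a 2-fold difference in intensity. A gene is represented by its brightest detected probe. Myog, the bHLH factor that marks cells committed to fuse, gave signals of 7.24, 6.93, 7.57 and 7.20 in replicates 1 to 4. Embryonic myosin heavy chain, Myh3, gave 8.75, 8.28, 8.77 and 8.48, and skeletal actin, Acta1, gave 8.43, 8.19, 8.65 and 8.41. In these 3 genes replicate 3 was the highest and replicate 2 the lowest, and the largest difference between any pair of arrays stayed under 1 unit. Fast troponin T, Tnnt3, which ties the troponin complex to tropomyosin, gave 7.47, 6.89, 7.45 and 7.30, again with replicate 2 lowest. Muscle creatine kinase, Ckm, which buffers ATP in mature fibres, gave 4.22, 3.497, 3.52 and 3.67. It was highest in replicate 1 and lay at the 80.4th percentile of detected genes, below the 98.0th of Myog and the 99.4th of Myh3. All 12 genes of the myotube list were detected, with Tnnc2 (9.20 ± 0.15 (SD, n = 4)) the brightest and Mylpf (1.95 ± 0.30) the dimmest. Probes differ in affinity and in the transcript end they cover, so such a level ranks spot signals and not amounts of RNA. How far probes of 1 gene lie apart is given with the families below.

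The promoters of 5 muscle genes are shown because they hold short motifs known from muscle promoters. They were chosen after the values had been seen and are given for the 120 bases before the annotated start, in the direction of transcription, from RefSeq on build GRCm38.p6. Capitals mark the E-box CANNTG, which bHLH factors bind, the CArG box, bound by serum response factor, and TATAAA, which holds the TATA-binding protein.
Acta1, chr8:123894776-123894895, minus strand: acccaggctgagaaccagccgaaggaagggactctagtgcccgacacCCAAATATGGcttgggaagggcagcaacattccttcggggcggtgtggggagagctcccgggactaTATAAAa
Actc1, chr2:114052876-114052995, minus strand: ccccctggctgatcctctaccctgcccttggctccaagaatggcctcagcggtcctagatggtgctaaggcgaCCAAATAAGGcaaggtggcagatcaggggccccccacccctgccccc
Myh3, chr11:67078180-67078299, plus strand: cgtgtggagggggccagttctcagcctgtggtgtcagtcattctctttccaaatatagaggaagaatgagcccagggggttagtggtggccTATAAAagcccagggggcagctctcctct
Myog, chr1:134289884-134290003, plus strand: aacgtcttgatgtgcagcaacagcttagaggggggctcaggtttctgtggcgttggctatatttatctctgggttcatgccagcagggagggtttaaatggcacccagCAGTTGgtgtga
Chrna1, chr2:73580339-73580458, minus strand: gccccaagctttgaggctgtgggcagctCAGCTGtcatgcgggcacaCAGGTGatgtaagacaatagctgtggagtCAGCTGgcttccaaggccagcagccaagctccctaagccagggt
In this stretch the skeletal and cardiac actin promoters each held a CArG box. The promoters of skeletal actin and of embryonic myosin held the TATA motif, beginning at -7 and at -29 from the annotated start. Myog had 1 E-box and Chrna1, the receptor subunit of the synapse, had 3. A stretch poor and one rich in CG are shown by a muscle and a ribosomal gene, with each CG in capitals. The pair was chosen after its sequences had been seen, and muscle genes differ among themselves. Vertebrate promoters are known to come in forms rich and poor in CG.
Ckm, chr7:19410974-19411093, plus strand: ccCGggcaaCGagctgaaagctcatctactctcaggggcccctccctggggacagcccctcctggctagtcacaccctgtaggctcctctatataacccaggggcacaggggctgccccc
Rpl35, chr2:39005132-39005251, minus strand: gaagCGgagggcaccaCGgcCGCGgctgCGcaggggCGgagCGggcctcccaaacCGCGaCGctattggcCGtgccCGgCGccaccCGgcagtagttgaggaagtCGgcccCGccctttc
The stretch of Ckm held 2 CG and that of Rpl35 16. The same stretch of Myl4, also a muscle gene, held 11, and that of Des, desmin, held 7.

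Markers of undifferentiated cells were split. Myf5 and Pax3, transcription factors of early myogenic cells, and Calcr, a receptor of quiescent satellite cells, stayed below the limit on each of the 4 arrays. Pax7 passed on 3 arrays of 4. Myod1, which myoblasts and myotubes share, was detected at 2.89 ± 0.17. Itga7, the laminin-binding integrin of myoblasts and fibres, was among the 100 brightest genes at 8.47 ± 0.24, Cd34 lay at 5.70 ± 0.34 and Vcam1 at 3.88 ± 0.40. In all, 6 of the 10 genes of the myoblast and satellite cell list (60%) were detected, a share close to the 58.3% of all genes.

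Lists of markers for other cell types gave detection shares between 12.5% and 90%, to be read against the 58.3% of all genes. Of the adipocyte list 1 of 8 was detected, Lipe (-3.64 ± 0.27), and Adipoq, Plin1, Cidec, Lep, Retn and Cfd were not flagged on any array. Of the endothelial list 3 of 8 were detected, led by Kdr (3.27 ± 0.26), with Cdh5, Tek, Tie1 and Emcn not flagged. Epithelial (1 of 6), liver (1 of 5), T and B cell (2 of 5) and bone and cartilage (3 of 8) lists were also mostly undetected. Of the macrophage list 5 of 8 were detected: Adgre1 (-3.92), Csf1r, Cd68, Cd14 and the integrin Itgam (4.22 ± 0.06). Ptprc, Lyz2 and C1qa were not flagged. Of the neuron list 5 of 8 were detected, with Snap25, a vesicle fusion protein, at 3.90 ± 0.19 and Rbfox3, Gad1 and Slc17a7 not flagged. Of the Schwann cell list 3 of 6 were detected, with Sox10 not flagged. The fibroblast list was the exception: 9 of 10 genes were detected, including the collagens Col3a1 (8.51 ± 0.19) and Col1a2 (8.31 ± 0.27) and decorin, Dcn (7.87 ± 0.19), with Thy1 alone not flagged. Of the smooth muscle list 6 of 9 were detected, led by smooth muscle actin Acta2 (8.45 ± 0.17), with Myh11, Rgs5 and Lmod1 not flagged. Of the cardiomyocyte list 6 of 10 were detected, the brightest being Gata4 (0.37 ± 0.21), and Nppa, Myl7, Hcn4 and Ryr2 were not flagged. Many of these genes are also expressed in muscle cells, and whether other cells were present was not tested.

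The brightest signals came from genes of protein synthesis, metabolism, the cytoskeleton and the extracellular matrix. Tpt1, the translationally controlled tumour protein, led with 9.75 ± 0.16, followed by Sparc, a collagen-binding matrix glycoprotein, with 9.74 ± 0.17. Of the 30 brightest genes 10 were cytoplasmic ribosomal proteins, among them Rpl35 (9.54 ± 0.17), Rps14 (9.49 ± 0.21) and Fau (9.47 ± 0.20), and of the 100 brightest 36 were. Aldoa, the muscle aldolase of glycolysis, gave 9.42, 9.69, 9.56 and 9.29. The imprinted noncoding RNA H19, known for its high level in fetal muscle, gave 9.33, 9.15, 9.28 and 9.24. Atrial essential light chain Myl4, which embryonic skeletal muscle also uses, gave 9.41, 9.20, 9.71 and 9.38. For these 3 genes all arrays lay within 0.6 units of each other, and the median detected gene lay at 1.35. Also among the 30 brightest were Actb (9.36 ± 0.06), Tuba1b (9.33 ± 0.04), Gapdh (9.24 ± 0.15), Lgals1 (9.28 ± 0.16), the mitochondrial COX1 (9.36 ± 0.12) and the fast troponin C gene Tnnc2. Detected genes spanned 13.99 units from the dimmest to the brightest. The 100 brightest genes held 24.5% of the summed linear signal of detected genes and the 1000 brightest 68.6%. Ribosomal proteins held 13.0%, the thin filament and Z-disc list 1.90% and the thick filament and M-band list 1.08%.

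**Figure D1:**
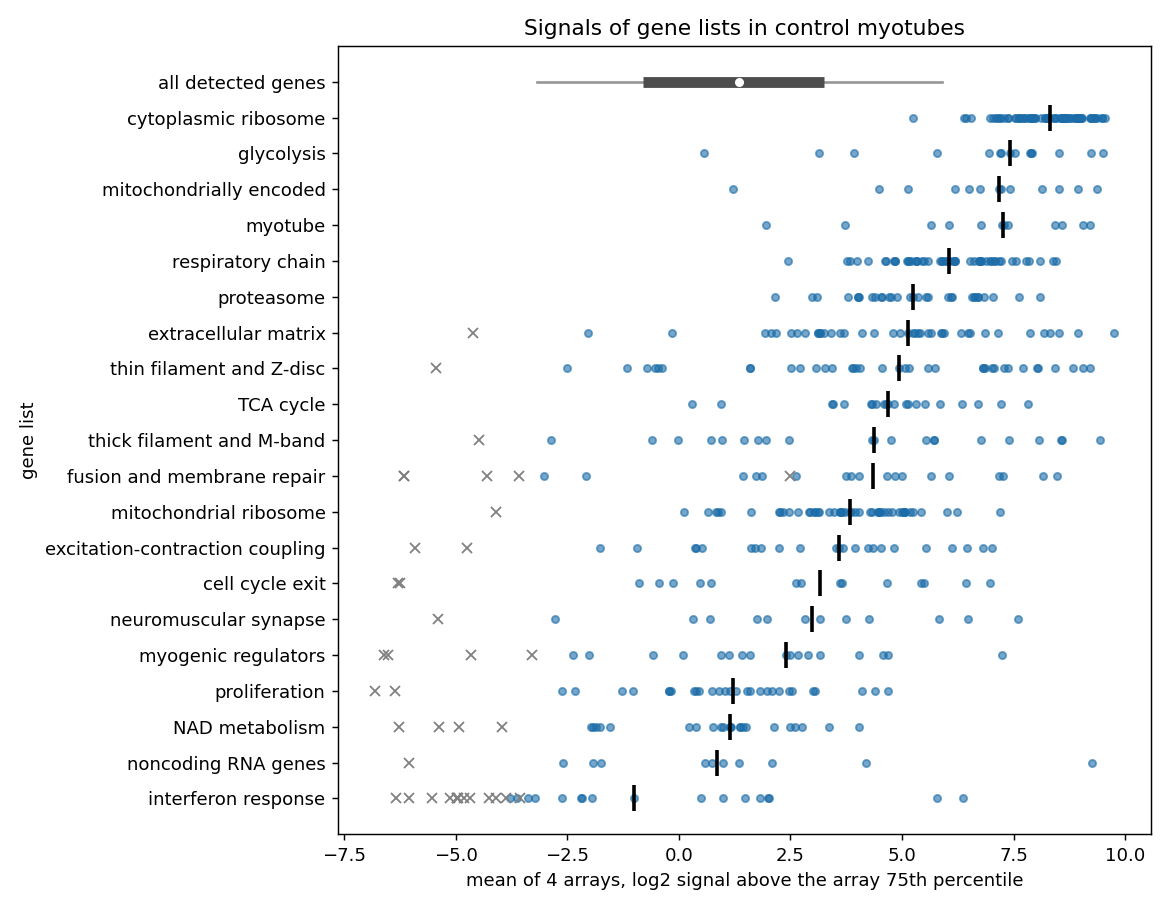
Mean log2 signal over the 4 control arrays (x axis) for the members of each gene list (y axis). Blue points are genes detected on all arrays, grey crosses genes that were not, black ticks the medians of detected members. The top bar gives the 5th, 25th, 50th, 75th and 95th percentiles of all detected genes. Ribosomal proteins lie at the right (median 8.31) and the interferon list at the left (median -0.999).

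For several of the brightest genes the probes of 1 gene disagreed. Glrx2, a mitochondrial glutaredoxin, had rank 3 at 9.66, whereas its other probes gave 3.04 and -6.41, the last not flagged on any array. Kctd14 had rank 4 at 9.54, with its other probes at -4.84 and -5.19 and not flagged. Slc10a1, a bile acid transporter of liver, had rank 23 at 9.25, with a second probe at -6.48. Pirb, an immune receptor, and Pbld1 showed the same split, at 8.89 against -5.69 and -6.41 and at 8.72 against -6.06. In all, 68 of the 100 brightest genes had several probes, and 6 of them (Sprr2a2 was the remaining one) had a probe that was not flagged on any array.

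The bright probes of Glrx2, Kctd14, Pirb and Pbld1 held stretches shared with other bright probes, and those of Slc10a1 and Sprr2a2 did not. The stretches are shown because they mark a set of bright signals that other probes of the same genes did not share. The probes of 11 of the 100 brightest genes held a stretch of 14 bases shared with at least 3 other probes of that set. These genes were Glrx2, Kctd14, Elk1, Med16, Pirb, Synrg, Pbld1, BC028528, Fam177a2, Medag and Cxcl11. The length of 14 bases was chosen after the values had been seen. Among the most widely shared stretches, given whole in capitals in the direction of the probe, were the following.
shared stretch a: AAGACAGCTACAGT
shared stretch b: GTGTCTGAAGACAG
shared stretch c: AGGACAGCCAGGGC
Stretches a and b are known from the B2 family and stretch c from the B1 family of short interspersed elements, repeats present in many copies in mouse transcripts. Stretch a occurred in 11 probes of the whole array, all detected, with a median signal of 8.51 and none below 6.62. The 5 of these outside the 100 brightest genes had a median of 7.77. The reverse complement of stretch a occurred in 2 probes, at -5.78 and -0.04, of which 1 was detected. Stretch b occurred in 15 probes, all detected, with a median of 7.53, or 5.67 for the 9 outside the 100 brightest genes. Stretch c occurred in 7 probes, all detected, with a median of 9.18, or 5.79 for the 2 outside the 100 brightest genes. Its reverse complement occurred in 5 probes, also all detected, with a median of 1.62. Since the stretches were picked from bright probes, their signal among those is no finding. Which transcripts these probes bound was not tested.

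Probes with simple repeats were also mostly bright, and these were found by sequence alone. A run of at least 20 bases of a repeated unit of up to 3 bases was found in 152 probes, and 151 of them (99.3%) were detected, against 43.9% of all probes. Their median signal was 4.25, against -4.58 over all probes. The GT repeat was the most frequent, with 52 probes at a median of 4.59, followed by AAG with 39 at 4.76 and AC with 24 at 3.46. With the 192 probes that held a simple repeat or a shared stretch left out, a choice made after seeing the data, 89 of the 100 brightest genes stayed among the 100 brightest. Glrx2 moved to rank 3487 and Elk1 to rank 11370, Kctd14, Pirb and Pbld1 were no longer detected, and 38 ribosomal and 7 sarcomere genes stood among the 100. In all, 120 detected genes were represented by such a probe.

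By function, detection was complete for the basic machinery. All measured genes were detected of the cytoplasmic ribosome (77 of 77), the respiratory chain (52 of 52), the proteasome (31 of 31), the TCA cycle (21 of 21), glycolysis (15 of 15) and the mitochondrial genome (13 of 13), against 58.3% of all genes. Among these lists the median member lay at the 99.1st percentile of detected genes for the ribosome, the 98.2nd for glycolysis, the 97.9th for the mitochondrial genome and the 95.5th for the respiratory chain. The citrate cycle was led by Mdh2 (7.82 ± 0.12), malate dehydrogenase, and Cs (7.21 ± 0.08), citrate synthase, and the proteasome by Psmc3 (8.10 ± 0.05), an ATPase of its cap. Mitochondrial ribosomal proteins were detected in 49 of 50 cases at a lower median percentile, 81.6.

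The sarcomere lists were almost complete, against 58.3% of all genes detected. Of the thin filament and Z-disc list 37 of 38 genes were detected and Nebl, the cardiac relative of nebulin, was not flagged. Of the thick filament and M-band list 21 of 22 were detected and Myl3, the slow and ventricular essential light chain, passed on 2 arrays. Excitation-contraction coupling genes were detected in 23 of 25 cases, led by Jsrp1 (7.02 ± 0.08), a junctional reticulum protein, Bin1 (6.80 ± 0.16), which shapes T-tubules, and the dihydropyridine receptor subunit Cacna1s (6.45 ± 0.37). Clcn1, the chloride channel of adult fibres, was not flagged, and Sln, sarcolipin, was partly flagged. The neuromuscular synapse list was detected in 12 of 13 genes, led by Chrna1 (7.59 ± 0.05), with the adult receptor subunit Chrne passing on 1 array. Of the fusion and membrane repair list 18 of 23 genes were detected, including both fusogens, Mymx with 7.13, 7.19, 7.21 and 7.18 and Mymk with 5.61, 5.51, 5.82 and 5.62. The 4 arrays lay within 0.1 units of each other for Mymx.

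Matrix genes were detected in 41 of 42 cases, with Fn1, fibronectin, at 8.94 ± 0.18 and Timp2, a metalloproteinase inhibitor, at 8.17 ± 0.21 below Sparc. Of the cell cycle exit list 14 of 16 genes were detected, led by cyclin D3, Ccnd3 (6.96 ± 0.09), and the inhibitor p21, Cdkn1a (6.44 ± 0.11), while Cdkn2a and Cdkn2b, at the Ink4 locus, were not flagged. The proliferation list was detected too, in 28 of 30 genes, led by Rrm2 (4.69 ± 0.15), Pcna (4.40 ± 0.21) and Mcm6 (4.09 ± 0.54), with Aurkb and Ccne2 not flagged. Its median member lay at the 48.1st percentile of detected genes. Among the lists of functions the interferon list stood lowest in detection and signal, with 17 of 30 genes detected (56.7%), near the 58.3% of all genes, and a median at the 23.2nd percentile. B2m, the light chain of MHC class I, was its brightest member (6.36 ± 0.09), and Oas1a, Oas2, Oas3, Mx1 and Tap1 were among those not flagged. NAD metabolism genes were detected in 23 of 27 cases, with the transhydrogenase Nnt brightest (4.03 ± 0.13) and Nmnat2, Bst1 and Sarm1 not flagged. Of the myogenic regulators 17 of 21 were detected, among them Myog, Mef2d (4.69 ± 0.13) and Eya1 (4.58 ± 0.23). Among noncoding RNA genes 10 of 11 were detected, H19 far above Neat1 (4.20 ± 0.35), and Meg3 was not flagged.

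Paralog use was followed in 82 families with 304 measured members, of which 248 (81.6%) were detected, against 58.3% of all genes, 11 partly and 45 not at all. In 45 families every measured member was detected, and in 5 families a single member was. Cacna1s, the skeletal L-type calcium channel, was detected without Cacna1c, Cacna1d and Cacna1f. Pkm, the muscle pyruvate kinase, was detected without Pklr, Gys1, the muscle glycogen synthase, without the liver form Gys2, Eef1a1 without Eef1a2, and Gdf11 without Mstn. The probes of Eef1a2, the elongation factor of adult muscle, and of Mstn, myostatin, were thus below the limit on each array. In the pair Pax3 and Pax7 neither member was detected on all arrays.

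To say how far a difference between paralogs must go before it exceeds what probes of the same gene show, detected probes of 1 gene were compared with each other. Over 5860 such pairs in 3792 genes the median difference was 1.85 units, or 3.60-fold, and the 90th percentile was 5.003 units. Between the brightest and the next detected member the median gap over the families with several detected members was 2.05 units, so most orders below lie within the range of 2 probes of a single gene. The order of the top pair was the same on all 4 arrays in 66 of 76 families. The gap exceeded the 90th percentile in 10 families.

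These 10 families were mostly enzymes and structural proteins with a housekeeping or muscle form. Cox4i1, the common cytochrome oxidase subunit, exceeded the lung form Cox4i2 by 9.49 ± 0.12 (SD, n = 4). Ldha exceeded Ldhb by 7.95 ± 0.71, and Aldoa exceeded the brain form Aldoc by 7.61 ± 0.67. Non-muscle myosin Myh9 exceeded Myh10 by 6.46 ± 0.14, lamin Lmna exceeded Lmnb1 by 5.94 ± 0.43, and leiomodin Lmod3, which lengthens thin filaments in skeletal muscle, exceeded Lmod2 by 6.10 ± 0.21. The others were the lactate exporter Slc16a3 over Slc16a1 (5.63 ± 0.58), Mybph over Mybpc1 (5.62 ± 0.64), Ampd2 over Ampd3 (5.39 ± 0.50) and Myoz2 over Myoz1 (5.22 ± 0.60). Ampd2 is the liver form of adenylate deaminase, and the muscle form Ampd1 gave -2.44 ± 1.11. With the mean of a gene's detected probes in place of the brightest, 8 of the 10 stayed: the gap of Myh9 became 0.93 and that of Ampd2 4.24.

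Among striated myosin heavy chains the embryonic and neonatal forms were brightest. After Myh3 came neonatal Myh8, with 7.56, 6.15, 7.18 and 6.19, then slow Myh7, with 6.23, 4.62, 6.48 and 5.51. The adult fast forms followed, Myh1 with 5.81, 4.13, 4.83 and 4.28 and Myh4 with 5.48, 4.42, 5.17 and 2.39. Replicate 4 was lowest for Myh4, replicate 2 for Myh8, Myh7 and Myh1, and neighbours from Myh8 to Myh4 overlapped in their array values. Fast Myh2 was far below, with a mean of -2.87 ± 1.07 (SD, n = 4), and Myh15 and Myh13 were flagged on 3 and 2 arrays. Myosin heavy chain genes are alike in sequence, and the part of shared binding was not tested.

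Essential light chains were led by Myl4 and the fast form Myl1 (8.57 ± 0.19), followed by non-muscle Myl6 (8.28 ± 0.13). Among regulatory chains the non-muscle Myl12a (8.19 ± 0.05) stood above the fast skeletal Mylpf, and the slow form Myl2 varied, with 1.73, -1.79, 0.19 and -0.24. Myl7 of the atrium and Myl10 were not flagged. Cardiac actin Actc1 gave 9.06 ± 0.12, skeletal Acta1 8.42 ± 0.19 and smooth muscle Acta2 8.45 ± 0.17, the co-expression of 3 muscle actins that is known from embryonic muscle.

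Fast, slow and cardiac troponins were all detected. Fast troponin C, Tnnc2, exceeded the slow and cardiac form Tnnc1 (7.02 ± 0.30) by 2.19 ± 0.19. Fast troponin I, Tnni2 (8.83 ± 0.25), exceeded slow Tnni1 (7.37 ± 0.29) by 1.46 ± 0.09 and the cardiac Tnni3 was dim (-2.48 ± 0.70). For troponin T slow Tnnt1 (8.05 ± 0.19), cardiac Tnnt2 (7.70 ± 0.08) and fast Tnnt3 lay close together, and their order changed with the mean of the probes. Tropomyosin Tpm1 (8.03 ± 0.25) led Tpm3, Tpm2 and Tpm4, which lay between 6.72 and 6.85, and this leader also changed with the mean of the probes.

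**Figure D2:**
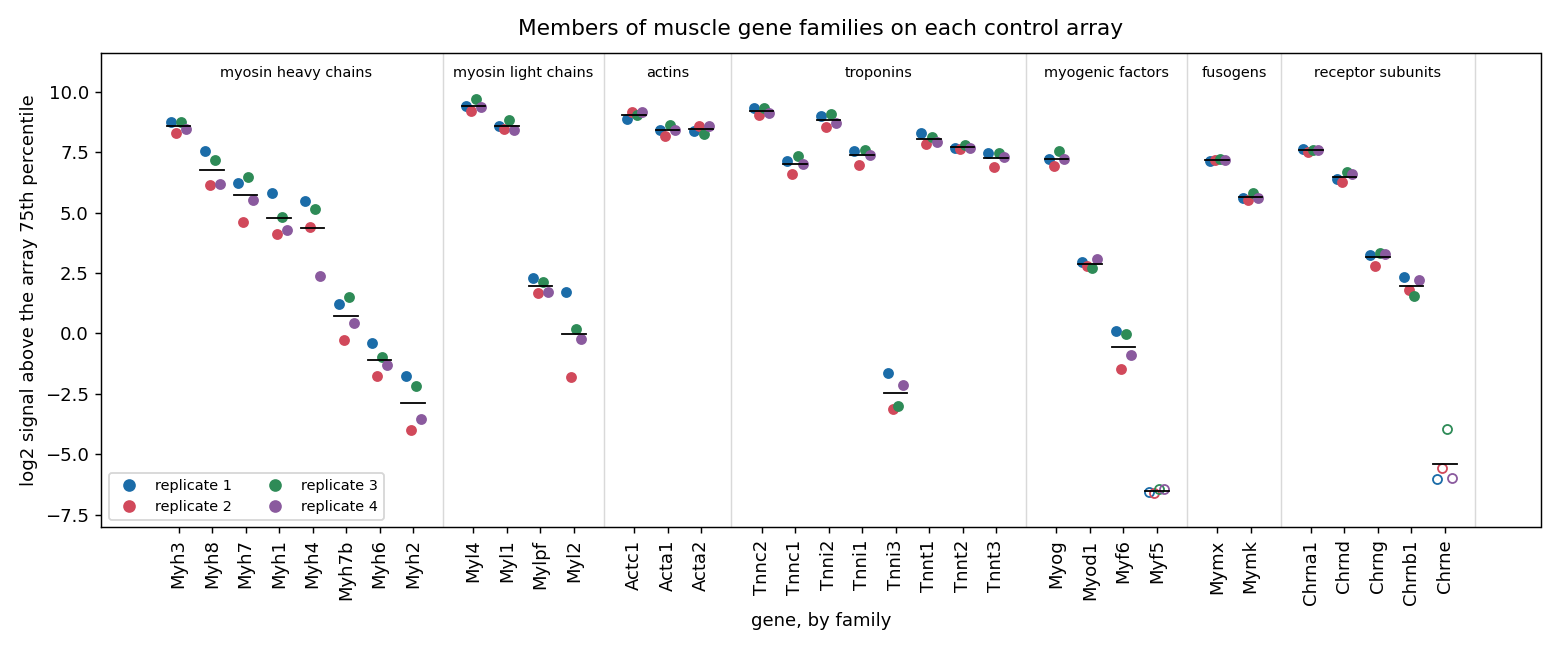
Log2 signal (y axis) of single genes, grouped by family (x axis), on each of the 4 control arrays. Filled points are genes detected on all arrays, open points genes that were not, and bars the mean. Myh3, Myl4, Actc1 and Tnnc2 lie above 8 on every array, and Myf5 lies below -6.

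Among the bHLH factors Myog exceeded Myod1 by 4.35 ± 0.35 (SD, n = 4), within the range of probes of a single gene, Myf6, the factor of adult fibres, gave -0.57 ± 0.73, and Myf5 was not flagged. Of the MEF2 factors Mef2d was brightest, then Mef2a (3.16 ± 0.20), Mef2c (0.10 ± 0.58) and Mef2b (-2.46 ± 0.51). The acetylcholine receptor had the fetal subunit Chrng (3.17 ± 0.24) beside Chrna1, Chrnd (6.49 ± 0.19) and Chrnb1 (1.98 ± 0.37), with the adult Chrne at background on 3 arrays.

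Among calcium handling genes Ryr1, the release channel of skeletal muscle, gave 3.94 ± 0.51 and Ryr3 0.39 ± 0.48, and the cardiac Ryr2 was not flagged. For calsequestrin the cardiac and slow Casq2 (5.53 ± 0.40) exceeded the fast Casq1 (2.24 ± 0.50) by 3.29 ± 0.50. The pumps Atp2a1 (4.23 ± 0.33) and Atp2a2 (3.59 ± 0.47) differed by 0.63 ± 0.20. Jph2 (1.61 ± 0.35) exceeded Jph1 (-1.77 ± 0.40), and Jph3 and Jph4 were not flagged. Muscle and brain creatine kinases were not apart: Ckm exceeded Ckb, which gave 4.20, 4.14, 2.74 and 3.47, by 0.09 ± 0.58, and Ckb was the higher on 1 array.

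Fuel genes differed in which form was brightest. The muscle phosphofructokinase Pfkm (5.79 ± 0.19) exceeded the liver form Pfkl (2.76 ± 0.50) by 3.03 ± 0.59, and the muscle glycogen phosphorylase Pygm (3.23 ± 0.34) exceeded the brain form Pygb (1.06 ± 0.27) by 2.17 ± 0.50. In the other direction, Hk1 (7.86 ± 0.26) exceeded the muscle hexokinase Hk2 (3.13 ± 0.51) by 4.73 ± 0.43, and Pgam1 (6.95 ± 0.51) exceeded the muscle form Pgam2 (3.93 ± 0.41). Eno1 (7.52 ± 0.37) and muscle Eno3 (7.42 ± 0.10) were level, each leading on 2 arrays. The ubiquitous glucose transporter Slc2a1 gave 4.05, 5.38, 4.20 and 3.32 and the insulin-regulated Slc2a4 -0.01 ± 0.63. Cpt1a, the liver form of the fatty acid importer, gave 2.11 ± 0.39 and the muscle form Cpt1b -2.94 ± 0.12. The muscle forms of oxidase subunits were detected below their common partners, Cox6a2 at 7.07 ± 0.49 against Cox6a1 at 8.44 ± 0.14, Cox8b at 4.65 ± 0.33 against Cox8a at 7.84 ± 0.16, and Cox7a1 at 2.44 ± 0.61 against Cox7a2 at 5.32 ± 0.09. The heart and muscle nucleotide translocator Slc25a4 (7.57 ± 0.18) exceeded Slc25a5 by 3.51 ± 0.09, and the testis form Slc25a31 was not flagged.

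The macroH2A histones, chromatin proteins with a macrodomain, were both detected. Macroh2a1 gave 1.55, 1.57, 1.62 and 1.504 and Macroh2a2 1.83, 1.81, 1.84 and 1.99, near the middle of the detected genes. They differed by 0.31 ± 0.12, and with normexp background correction their order was reversed. The probe used for Macroh2a1 was not assigned to a splice form. Among retinoblastoma proteins Rb1 (3.60 ± 0.08) exceeded Rbl1 by 4.03 ± 0.38, and among D cyclins Ccnd3 exceeded Ccnd1 (2.92 ± 0.62) by 4.04 ± 0.67. Igfbp5 (6.68 ± 0.24) led the IGF binding proteins, Igf1 and Igf2 were level, and Igfbp1 was not flagged. Vim (7.84 ± 0.24) and Nes (7.05 ± 0.07), filaments of immature muscle, stood above Des (5.58 ± 0.26), within the range of probes of a single gene.

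The 250 bases before and 50 bases after the annotated start of a gene, from RefSeq on build GRCm38.p6, were available for 17559 of the 22456 genes. The promoters differed by class in their content of CG dinucleotides. A ratio of observed to expected CG of at least 0.6 was found in 49.5% of all windows, in 19.6% of those of genes not flagged, 30.9% of those partly flagged and 69.3% of those detected. By quintile of signal the share among detected genes was 47.1%, 68.2%, 76.0%, 79.3% and 76.0%, from dim to bright. In both sarcomere lists together 9 of 45 windows (20%) passed, against 49 of 56 (87.5%) for ribosomal proteins. A low share was not particular to sarcomere genes. It was 33.3% (9 of 27) for matrix, 30.8% (4 of 13) for coupling and 36.4% (4 of 11) for fusion and repair genes. Glycolysis had 53.3% (8 of 15) and the respiratory chain 87.5% (35 of 40). CANNTG, which reads the same on both strands, was present at least 3 times in 14.3% of all windows, in 24.4% of those of the sarcomere lists (11 of 45) and in 0 of 56 ribosomal windows. The CArG box was found in 11.1% of sarcomere windows (5 of 45) and 1.48% of all, and the MEF2 site in 17.8% (8 of 45) and 2.70%. TATAAA, on the sense strand in the last 50 bases before the start, was found in 11.1% (5 of 45) and in 3.32% of all windows. It was also found in 2 of 11 fusion and repair windows and 2 of 12 cell cycle exit windows, and in 0 of 13 coupling windows. Among genes not flagged the CArG box was found in 1.53%, the MEF2 site in 4.25% and TATAAA in 5.48%. The shares among detected genes were 1.41%, 1.78% and 1.93%. CArG and MEF2 patterns were read on both strands and can overlap TATAAA. A match describes the letters of the window and not binding.

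**Figure D3:**
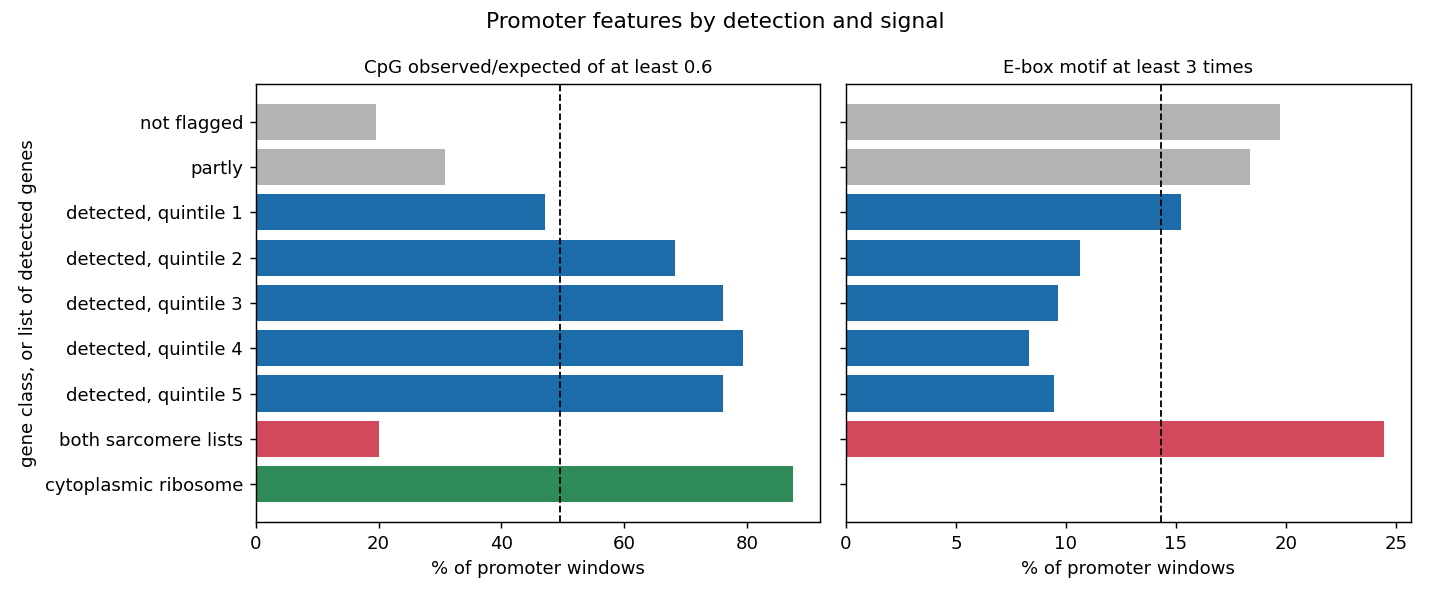
Percentage of promoter windows (x axes) with a CG ratio of at least 0.6 (left) and with at least 3 E-box motifs (right), by detection class, by signal quintile of detected genes and for 2 lists (y axis). The dashed lines give the share over all 17559 windows. Sarcomere genes lie at 20% on the left and 24.4% on the right, ribosomal proteins at 87.5% and 0%.

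The 4 arrays were close to each other. Across detected genes Pearson's r between pairs of arrays lay between 0.984 and 0.993, where genes are not independent points. The SD between arrays had a median of 0.18 units, or 1.13-fold, and fell from 0.27 in the dimmest quintile to 0.14 in the brightest. It exceeded 0.5 units in 1079 genes (8.25%) and 1 unit in 117. For 253 detected probes printed 10 times on each array, the SD between single spots of an array had a median of 0.064 to 0.071 units. The SD between arrays, taken on the mean of a probe's spots, had a median of 0.18, so the measures differ. Replicates 2 and 3 differed most, with 686 genes (5.24%) more than 1 unit apart, and replicates 1 and 4 least, with 225 (1.72%).

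**Figure D4:**
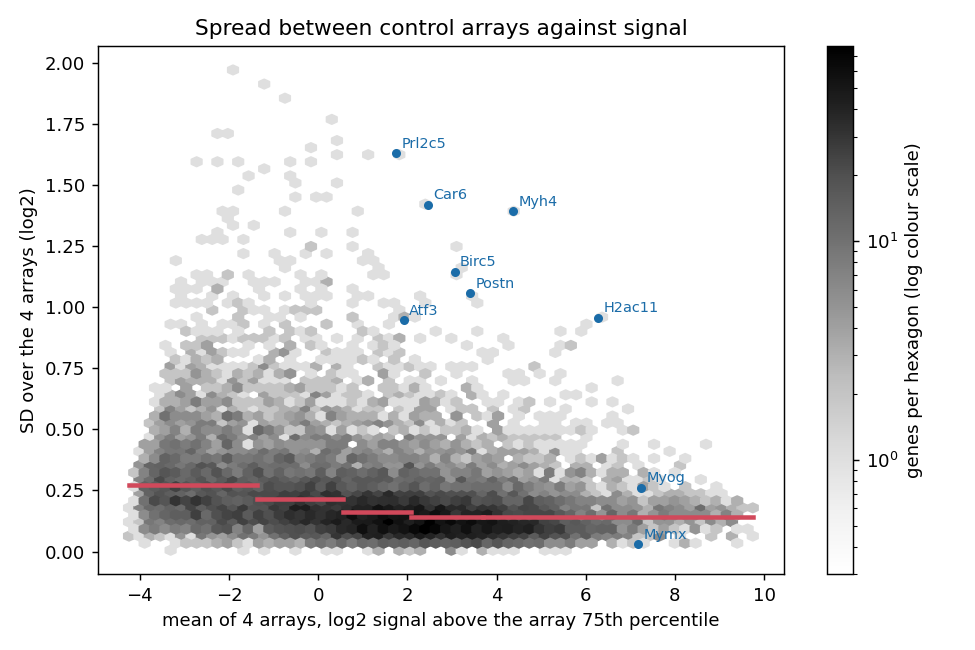
SD of log2 signal over the 4 control arrays (y axis) against mean log2 signal (x axis) for 13086 detected genes. Shading counts genes on a log scale, red lines give the median of each signal quintile (0.27 to 0.14), and blue points are named genes. Prl2c5, Car6 and Myh4 have the largest SDs among genes above the median signal of 1.35, and Mymx lies near 0.

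Cell cycle genes varied between the arrays. The proliferation list had the largest median SD of the lists, 0.86 units, against 0.18 for all detected genes. Its median deviation from the mean of the 4 arrays was -0.07, 1.03, -0.94 and 0.18 in replicates 1 to 4. The list was thus higher in replicates 2 and 4, of slide column 3, than in replicates 1 and 3, of column 1. The part of array position was not tested here either. Of its 28 detected genes 26 were lowest in replicate 3, where 27.9% of all detected genes were lowest. Of the same genes 17 were highest in replicate 2, where 28.5% of all detected genes were highest. Birc5, a mitotic survivin, gave 2.92, 4.43, 1.64 and 3.25, Mki67 gave 1.92, 3.06, 0.75 and 2.13 and cyclin Ccnb2 gave 2.23, 3.57, 1.29 and 1.85, each highest in replicate 2 and lowest in replicate 3. Top2a, at -0.28, 0.89, -1.49 and 0.14, was also highest in replicate 2 and lowest in replicate 3. Mcm3, of the replication helicase, was instead highest in replicate 4, with 1.56, 1.46, 0.48 and 2.58, as was the replication clamp Pcna, with 4.27, 4.29, 4.31 and 4.71. Uhrf1, Cenpe, Spc25 and the histone genes H2ac4 and H2ac11 were also among the 20 genes of largest SD in the upper range of signals, the 6543 detected genes above the median of 1.35. Histone genes have near-identical copies, so their probes may not separate them.

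The sarcomere lists moved the other way in replicate 2. The thick filament and M-band list deviated by 0.47, -0.46, 0.29 and -0.17 in replicates 1 to 4, and 19 of its 21 detected genes were lowest in replicate 2, where 25.7% of all detected genes were lowest. Of the same 21 genes 13 were highest in replicate 1, against 18.7% of all. The thin filament and Z-disc list deviated by 0.23, -0.41, 0.19 and -0.07, with 30 of 37 genes lowest in replicate 2, and the excitation-contraction coupling list by 0.28, -0.35, 0.15 and -0.03, with 20 of 23. The sarcomere lists were thus higher in the 2 arrays of slide column 1 than in the 2 of column 3. For the thin filament and coupling lists the small negative value of replicate 4 became positive with median centring (0.04 and 0.08). It was also positive with quantile normalization (0.03 and 0.04) and with the authors' series values (0.02 and 0.04), and stayed negative with normexp (-0.06 and -0.03). With the authors' series values the coupling list lay at 0.0475 in replicate 3, close to the 0.04 of replicate 4. The part of array position was not tested, and culture and position cannot be told apart in 4 arrays. Myogenic regulators showed little of it, with a median SD of 0.19 and list deviations between -0.04 and 0.04, as did the fusion and repair list, between -0.02 and 0.07.

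Ribosomal proteins were highest in replicate 3 in 76 of 77 cases, where 32.3% of all detected genes were highest. Their median deviations were small, however, at -0.13, 0.02, 0.23 and -0.13, and with quantile normalization that of replicate 3 was 0.08 in place of 0.23. Glycolysis genes were lowest in replicate 4 in 11 of 15 cases and matrix genes in 24 of 41, where 23.7% of all detected genes were lowest. For glycolysis the array with the lowest list median became replicate 3 with quantile normalization (-0.22 against -0.12 in replicate 4), with median centring (-0.12 against -0.09) and with the authors' series values. For the matrix list replicate 4 stayed lowest, at -0.11 to -0.22 over the scalings. The TCA cycle and proteasome lists varied least, with median SDs of 0.09 and 0.08.

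**Figure D5:**
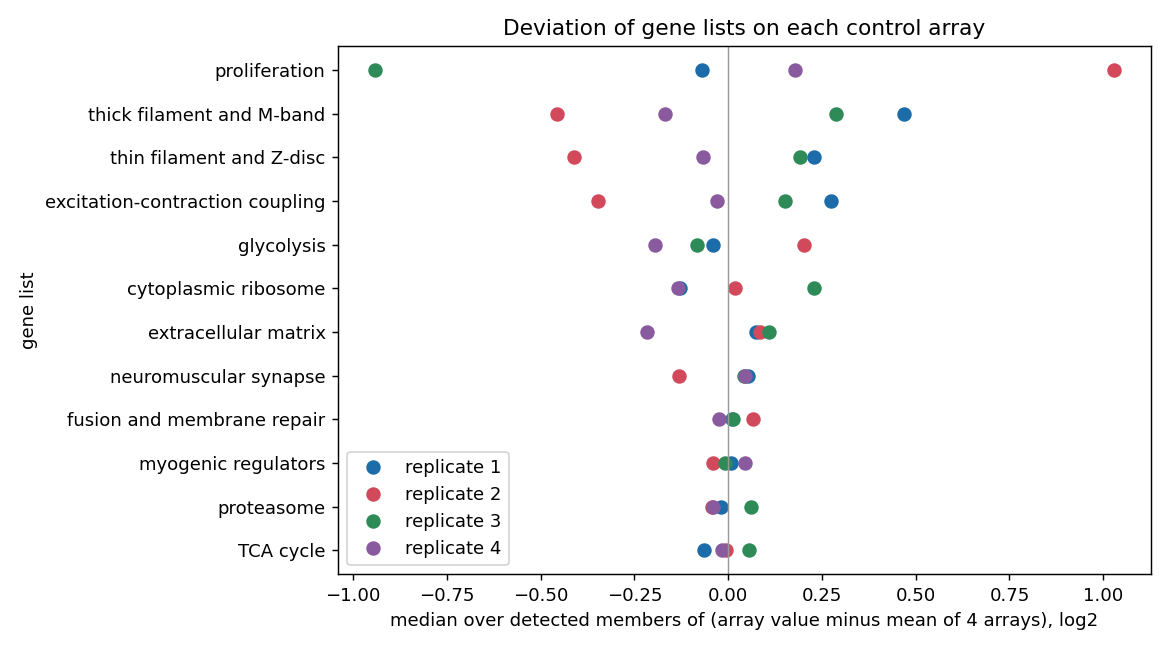
Median deviation of each gene list (y axis) on each of the 4 control arrays from the mean of the 4 arrays (x axis, log2 units), over the detected members. The proliferation list spreads from -0.94 in replicate 3 to 1.03 in replicate 2, and the sarcomere lists are lowest in replicate 2.

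Single genes with a large spread came from several functions. Prl2c5, a prolactin-related hormone with near-identical neighbours, had the largest SD in the upper range of signals, with 0.07, 3.64, 0.74 and 2.51, high in replicates 2 and 4. Car6, a secreted carbonic anhydrase, gave 2.75, 2.27, 4.13 and 0.69, highest in replicate 3. Postn, periostin, a matrix protein, gave 3.44, 4.20, 4.11 and 1.91, lowest in replicate 4. Smoc2 and Itga11, also of matrix and its receptors, were likewise lowest in replicate 4. So were Trib3, with 6.25, 6.75, 6.65 and 4.76, and Atf3, with a mean of 1.92 ± 0.95 (SD, n = 4). Trib3 was chosen after its values had been seen, as was Nmrk2, a nicotinamide riboside kinase of muscle, lowest in replicate 2 with 1.997, 0.57, 2.16 and 1.27.

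The smallest SD in the upper range of signals was that of Pigs, of GPI anchor transfer, which gave 3.86, 3.86, 3.87 and 3.87, and Pdzd11, Cpsf1, Stx5a, Psma5, Phrf1, Hps6, Kmt5a, Pex16 and Tsfm also had SDs of 0.0151 or less. Among the 188 detected genes named in the text, 15 had 1 array apart from the other 3 by Dixon's criterion, against 5.23% of all detected genes. Some of the 188 were chosen for their spread or for deviating on 1 array, so their count cannot be read against that share.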

How the data were processed

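Total RNA of 8 samples was hybridised to 1-colour Agilent mouse arrays, and the 4 control arrays were used. The deposited files hold one array's spots each: a processed signal intensity and flags, per the file headers written by Agilent Feature Extraction 10.7.3.1, which also name the build mm9. The deposited series table holds the authors' log2 values of the same arrays and served as an alternative.

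The processed intensity was taken as log2 minus the array's 75th percentile over non-control spots, outlier spots were left out, and spots of 1 probe were averaged. A probe counted as detected on an array if 50% or more of its spots were well above background. Probes were named through RefSeq accessions (27593), symbols (3497) or older symbols (393), and 24198 stayed unnamed. Columns matching no sample of the series numbered 0, and the columns of the other 4 samples were not used. Groups were not compared, and arrays apart were counted by Dixon's criterion. With 4 arrays the SDs are themselves imprecise, and probe affinity limits orders between genes. Python 3.11.15, pandas 2.3.3, numpy 2.4.6, R 4.3.3 and limma 3.58.1 (normexp background correction) were used, and the calculations were tested on simulated data.

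Alternatives were the detection rule, background correction, normalization, the rule for several probes, the limit for families, and leaving out each replicate. Genes were named as markers, as the 30 brightest, as family members, or as leading or undetected list members. Others were named for the largest or smallest spread or for the largest deviation of a single array from the others. The rest are given as chosen after their values had been seen. Members and lists were chosen with earlier results of these data known. Values of a few genes of these lists and families are not reported here.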

Additional observations from a re-analysis of the deposited data

Results flagged for a closer look

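One array stood apart from the other 3 by Dixon's criterion in 15 of the 188 detected genes named above, against 5.23% of all detected genes, and in 5 gene lists. Some of the 188 genes were chosen for their spread or for deviating on 1 array, so their count cannot be read against the share of all genes. Chance gives such a gap in about 1 in 20 groups. Replicate 2 was apart for 6 of the genes. Chrng, the fetal receptor subunit, gave 2.81 there against 3.27 to 3.32 in the others, and Dcn, decorin, gave 7.58 against 7.96 to 7.98. Eno1, enolase, gave 8.06 against 7.27 to 7.40. Cox6a1, an oxidase subunit, gave 8.65 against 8.34 to 8.39, Cox7a2 gave 5.45 against 5.26 to 5.28, and the translocator Slc25a5 gave 4.37 against 3.92 to 3.98.

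Replicate 4 was apart for Cpt1a, the fatty acid importer (2.69 against 1.87 to 2), Pcna, the replication clamp (4.71 against 4.27 to 4.31), Macroh2a2 (1.99 against 1.81 to 1.84), Fam177a2 (8.41 against 8.66 to 8.68) and Stx5a (3.73 against 3.75). Replicate 3 was apart for Kdr, the VEGF receptor (3.66 against 3.11 to 3.18), and Hps6 (2.94 against 2.91 to 2.92). Replicate 1 was apart for Psmc3 (8.02 against 8.12 to 8.13) and Pex16 (1.76 against 1.73 to 1.74). The gaps of Hps6, Pex16 and Stx5a belong to genes chosen for their small spread.

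Among the lists, the median deviation of the neuron list was -0.78 in replicate 3 against 0.01 to 0.09, over 5 detected genes. That of the Schwann cell list was -0.26 in replicate 4 against -0.01 to 0.02, over 3 genes. The neuromuscular synapse list lay at -0.13 in replicate 2 against 0.04 to 0.05, and the extracellular matrix list at -0.22 in replicate 4 against 0.07 to 0.11. The cell cycle exit list lay at 0.06 in replicate 3 against -0.02 to -0.01. Under the other 4 scalings, an alternative added after seeing the data, the neuron list kept replicate 3 apart in each. The matrix list kept replicate 4 apart with normexp and not with median centring (-0.11), quantile normalization (-0.13) or the authors' values (-0.13). The synapse list kept replicate 2 apart with the authors' values alone, at -0.17. Neither the cell cycle exit list nor the Schwann cell list kept the same array apart in any of the 4.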

How the results depend on the processing

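The number of detected genes lay between 12872 and 17890 over the detection and naming rules, against 13086, and between 13139 and 13298 with 1 replicate left out. Of the 100 brightest genes 70 stayed with the mean of a gene's probes, 93 to 100 with other background or normalization settings, and 96 to 98 with 1 replicate left out. The median SD was 0.14 to 0.20 over the settings and 0.15 to 0.18 without 1 replicate. The count of families past the limit was 8 to 12, or 9 to 10 with 1 replicate left out, but 21 with the 75th percentile of same-gene differences as the limit, a lower limit by construction. Without replicate 4 the gap of Myoz2 over Myoz1 was 4.96. The share of CG-rich promoters among detected genes was 68.2% with detection on 3 of 4 arrays, against 69.3%, outside its 95% Wilson interval of 68.4% to 70.2%. The brightest member changed in 6 families with the mean of the probes, in 4 without replicate 2, in 2 with normexp and in 2 without replicate 4.

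No paired analysis was possible because 1 group was used and no groups were compared. The arrays give signals of probes that differ in affinity, so orders between genes within 5.003 units lie within the range of probes of a single gene. The 5.003 units come from detected probes alone. Dim genes had the larger spread. A probe not well above background gives an upper bound for its own signal and not for its gene. Of the 5150 detected genes with several probes, 3792 had several detected probes. A gene called not flagged is thus one whose probes on these arrays all stayed below the limit, and its absence was not tested.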
